A study of Mus musculus with 12 samples.

Results

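HAFTL cells treated with beta-estradiol were compared with C10 cells given ethanol as vehicle, on 4 of the 12 arrays of a study of the conversion of a B cell line into macrophages. All probe sets of these 4 arrays entered, 45101 on each, which gave 18193 named genes, of which 11696 were bright enough to test. HAFTL is a mouse line derived from fetal liver and transformed with the Ha-ras oncogene, and it is the parental line. C10 is a clone derived from it that carries an inducible form of C/EBPα, a transcription factor of the myeloid lineage, and here it had ethanol and no estradiol. The groups were thus HAFTL with beta-estradiol (2 arrays) and vehicle C10 (2 arrays), and both lines share the Ha-ras transformation. The other 8 arrays, of C10 with beta-estradiol for 3, 12, 24 and 48 h (2 arrays each), served for the estimate of the spread and as levels set beside the named genes. The series' design names HAFTL cells as a control, and the labels give no treatment time for HAFTL or for the vehicle. The parental line and its clone differed here in line, in the introduced construct and in estradiol against ethanol, and these cannot be told apart. Because C10 is a single clone, a difference may belong to that clone alone. The labels do not say whether duplicates are separate cultures. The p-values then reflect no more than how far these particular arrays differ, and that spread may be technical.

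Early B cells assemble their antigen receptor genes by V(D)J recombination, in which the Rag1 and Rag2 proteins cut DNA and terminal transferase, encoded by Dntt, adds nucleotides at the joints. Their first receptor pairs the heavy chain with the surrogate light chains encoded by Igll1 and Vpreb1, and signals through Cd79a and Cd79b. Transcription factors such as Pax5 and Ebf1 maintain the B cell programme, and the transactivator encoded by Ciita switches on the genes of MHC class II, which present peptides to T cells. Beta-estradiol is the natural ligand of the oestrogen receptors.

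The 2%-trimmed mean signal was 500.0 on each array, as the depositors had scaled it, and therefore says nothing of depth. The median signal was higher in both HAFTL arrays, with 78.8 and 85.0 in HAFTL against 75.0 and 74.4 in vehicle C10. RNA quality measures moved with the group: the Actb 5′/3′ signal ratio was 0.691 and 0.740 in HAFTL against 0.582 and 0.638 in vehicle C10, and that of Gapdh was 1.37 and 1.28 against 1.19 and 1.15. Their part in the results was not tested. Across the genes tested, which are not independent replicates, the duplicates correlated with Pearson's r of 0.979 in HAFTL and 0.980 in vehicle C10. The number of arrays limits the precision.

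The lines were close to each other on the main axes of the data and apart on a later one. On the first principal component of all 12 arrays, with 55.5% of the variance, HAFTL lay at -54.1 and -53.9 against -53.1 and -54.0 for vehicle C10. On the second, with 21.9%, HAFTL lay at -48.1 and -47.8 against -40.8 and -41.0. The third, with 5.45%, placed HAFTL at 10.7 and 8.44 against -3.34 and -2.96 for vehicle C10, on opposite sides of 0.

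Between the parental line and the clone, 832 genes were higher and 950 lower in HAFTL, at an adjusted p below 0.05 in limma, with Benjamini-Hochberg adjustment over the 11696 genes tested (called, below). These were 15.2% of the genes tested, with 7.11% higher and 8.12% lower. The median log2 difference, HAFTL minus vehicle C10 here and below, was -0.00 over all genes and 0.24 in absolute size, and 0.58 among called genes. A called difference of at least 2-fold was found for 162 genes higher and 238 lower, 3.42% of those tested, and one of at least 4-fold for 52 and 67. The 2 HAFTL arrays lay beyond both vehicle arrays for 7057 genes, 60.3% of those tested, which is far more than the calls.

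The split of the calls depended on the scaling. Centring each array on its median moved the median difference to -0.11 and gave 406 genes higher and 1332 lower, so that 23.4% of the calls were higher, against 46.7% as reported. Scaling on the poly-A spike-ins, which are RNAs added at labelling, left 69 higher and 61 lower, with a median of 0.10. The mean log2 signal of the spike-ins itself differed between duplicates. It was 8.58 and 8.19 in HAFTL, 8.60 and 8.32 in vehicle C10, and 8.39 and 7.40 in C10 at 48 h. This scaling carries such differences into every gene, so a call lost under it may reflect added spread. Calls were also sensitive to each array: leaving out either HAFTL array or either vehicle array left 326 to 391 genes higher and 442 to 537 lower, and 561 of the 1782 called genes passed without each of the 4 arrays in turn, 233 higher and 328 lower. Below, a call is said to hold if it passed in each of these 4 fits, in which the lone array is assumed to vary like the other groups. No called gene named below turned its direction under any of these scalings. Outside the 40 largest differences, the named genes still called under spike-in scaling were Ccl3, Ccl9, Ccr6, Cd48, Col4a1, Cxcr3, Egr2, Esr1, H2-Eb1, Lta, Lyz2, Ncf1, Pf4, Pmaip1, Prkcb, S100a4, Tgfb3 and Zbp1. Averaging a gene's probe sets also ended the calls of Ccr2, Cd2, Cflar, Cyp51, Fdft1, Hsd17b7, Id2, Il6ra, Il6st, Rasgrp2, Rb1, Rgs2, Socs2, Spn, Syk, Tgfbr1, Tgfbr2, Xrcc6 and Mapk12. Median centring ended those of Calr, Cyp51, Ebp, Ets1, Hsd17b7, Il18, Socs2, Spn, Srebf2, Tcf12, Tgfbr1 and Xrcc6. Over every probe set in place of one per gene, 2493 of 26524 were called (9.4%). A fit of only the 4 arrays compared gave 135 genes higher and 182 lower.

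**Figure D1:**
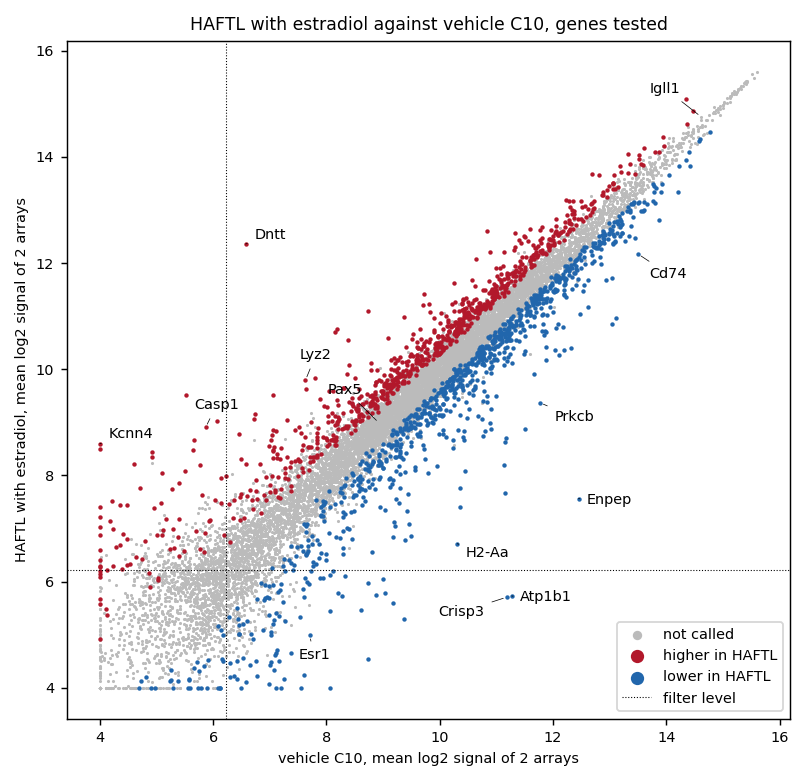
Mean log2 signal of the 2 HAFTL arrays with estradiol (vertical axis) against that of the 2 vehicle C10 arrays (horizontal axis) for the 11696 genes tested. Red points are the 832 genes called higher in HAFTL and blue points the 950 called lower, dotted lines mark the filter level of 6.22, and the floor lies at 4. Dntt stands far above the diagonal, Atp1b1, Crisp3 and Enpep far below it, and Pax5 and Igll1 close to it.

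Dntt showed the largest rise. Its signal was 5292 and 5208 in HAFTL against 88.8 and 102 in vehicle C10, a log2 difference of 5.78 ± 0.46 (SE, n = 2 per group, adjusted p = 3.7e-04 in limma), and all 3 of its probe sets were called higher. In C10 with estradiol it reached 105 at most and lay at the floor of 16 in both arrays at 12 h and 48 h. Every C10 array was thus far under both HAFTL arrays for this gene.

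The next rises were of genes with no signal above the filter level of 74.6 in vehicle C10, which makes their folds lower bounds. Kcnn4, a calcium-activated potassium channel, had 438 and 342 in HAFTL against 16 and 16 in vehicle C10, at least 5.19-fold higher (adjusted p = 2.6e-04 in limma). Tle5, a short member of the TLE family of corepressors, had 357 and 368 against 16 and 16, at least 4.86-fold higher (adjusted p = 0.0011 in limma). In the 8 arrays of C10 with estradiol they reached 37.5 and 38.5 at most. In C10 these genes were at or near the floor whatever the treatment. Kcnn4 and Tle5 passed the filter through the 2 HAFTL arrays alone, so their calls give no separate support.

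Of the 20 largest rises, 19 had both vehicle arrays under the filter level, Dntt being the exception, and 13 had all 10 C10 arrays under it. They included the endocytosis gene Sh3gl3 (at least 9.77-fold), the tetraspanin gene Tspan6 (at least 5.45-fold), Tceal8 (at least 4.68-fold), the transmembrane collagen gene Col13a1 (at least 4.38-fold), Golm2 (at least 4.0-fold), the stress kinase gene Mapk12 (at least 2.90-fold), the protease gene Capn2 (at least 2.44-fold), the myosin gene Myo7b (at least 2.34-fold), Armcx3 (at least 2.33-fold), the membrane trafficking gene Scamp1 (at least 2.26-fold), Prxl2b (at least 1.99-fold), the zinc finger gene Zfp11 (at least 1.88-fold), Bves (at least 1.74-fold) and Samd10 (at least 1.57-fold). Calls held for 12 of the 20, and all 20 passed under spike-in scaling too. The calls of Sh3gl3 and Myo7b ended without any single one of the 4 arrays (adjusted p between 0.056 and 0.12 for Sh3gl3 and between 0.087 and 0.094 for Myo7b), that of Col13a1 without the first HAFTL array (0.0501), and that of Prxl2b without either vehicle array (0.0518 and 0.0513). Those of Mapk12 and Armcx3 ended without either HAFTL array or without the first vehicle array (0.051 to 0.054 and 0.072 to 0.095). A floor of 1 in place of 16 ended the calls of Sh3gl3, Col13a1, Mapk12 and Zfp11. The 13 rises with all C10 arrays under the filter level passed the filter through the HAFTL arrays alone. Their calls give no separate support.

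The neighbouring chromosome 9 genes Casp1 and Casp4, inflammatory caspases that activate interleukin-1 family cytokines or drive pyroptosis, were both among the 20. Casp1 had 476 and 482 in HAFTL against 52.5 and 64.9 in vehicle C10, at least 6.42-fold higher (adjusted p = 0.012 in limma), and 116 and 192 in C10 at 48 h. Casp4 had 278 and 248 against 16 and 73.5, at least 3.52-fold higher (adjusted p = 0.016 in limma). The call of Casp1 ended without any single one of the 4 arrays (adjusted p between 0.053 and 0.069), and that of Casp4 without either HAFTL array (0.077 and 0.063). Their sequences are related, so a probe set may detect more than one caspase. The glycogen phosphorylase gene Pygl, with 510.1 and 528 against 63.8 and 70.3, at least 6.95-fold higher (adjusted p = 1.8e-05 in limma), was brighter in C10 with estradiol at 24 h, with 2484 and 2592, than in HAFTL. Casp4 also reached 322 in treated C10, above both HAFTL arrays.

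Among the 20 largest falls, 15 were under the filter level in both HAFTL arrays, and 12 were above it in all 10 C10 arrays. Atp1b1, the beta subunit of the sodium pump, had 51.7 and 54.2 in HAFTL against 2419 and 2527 in vehicle C10, at least 33.1-fold lower (adjusted p = 1.4e-07 in limma), and 4 of its 5 probe sets were called lower. Crisp3, which encodes a secreted cysteine-rich protein, had 41.3 and 65.9 against 2216 and 2435, at least 31.1-fold lower (adjusted p = 2.5e-05 in limma). Crisp3 was also under the filter level in the 6 arrays of C10 at 12 h, 24 h and 48 h, whereas Atp1b1 was above it in every C10 array. Both genes were far lower in HAFTL than in vehicle C10, but Crisp3 in HAFTL overlapped C10 at 12 h and 48 h.

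Enpep, the aminopeptidase known as the BP-1 antigen of pre-B cells, had 269 and 133 in HAFTL against 6050 and 5165 in vehicle C10, a difference of -4.89 ± 0.39 (SE, n = 2 per group, adjusted p = 3.7e-04 in limma). Its 2 HAFTL arrays differed from each other by more than those of any gene in this paragraph, but both were far under vehicle C10. Trio, a guanine nucleotide exchange factor, had 205 and 203 against 2364 and 2190, and fell by 3.48 ± 0.13 (log2, with its SE over 2 arrays per group, adjusted p = 1.6e-05 in limma). B3gnt5, a glycosyltransferase, fell by 2.96 ± 0.17 and Cd5, a surface receptor of T cells and some B cells, fell by 2.93 ± 0.14. These 4 genes and H2-Aa, given with its family further on, were the falls in which HAFTL kept a signal above the filter level.

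The remaining falls were lower bounds: the ubiquitin ligase gene Nedd4l (at least 8.83-fold), Garem1, an adaptor of growth factor receptor signalling (at least 7.74-fold), the immediate early factor Egr3 (at least 7.05-fold), the filamin regulator Rflnb (at least 6.82-fold), the actin-binding Afap1 (at least 6.25-fold), the Cdc42 exchange factor Dock8 (at least 5.69-fold), Rtn1 (at least 5.26-fold), Hs3st1 (at least 3.60-fold), the calcium channel gene Ryr2 (at least 2.60-fold), Sall3 (at least 2.52-fold), Wfdc21 (at least 2.03-fold), the chemokine Ccl6 (at least 1.97-fold) and the lymph node homing receptor Ccr7 (at least 1.86-fold). All 20 calls passed under spike-in scaling, and 19 held, the exception being Rtn1, whose call ended without the second HAFTL or the second vehicle array (adjusted p = 0.058 and 0.061). The call of Egr3 ended when a gene's probe sets were averaged. Ccr7 was at the floor of 16 in all 8 arrays of C10 with estradiol as well as in HAFTL, and so was above the filter level in the 2 vehicle arrays alone, with 151 and 127. Ccr7 thus passed the filter only through the group where it was high.

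**Figure D2:**
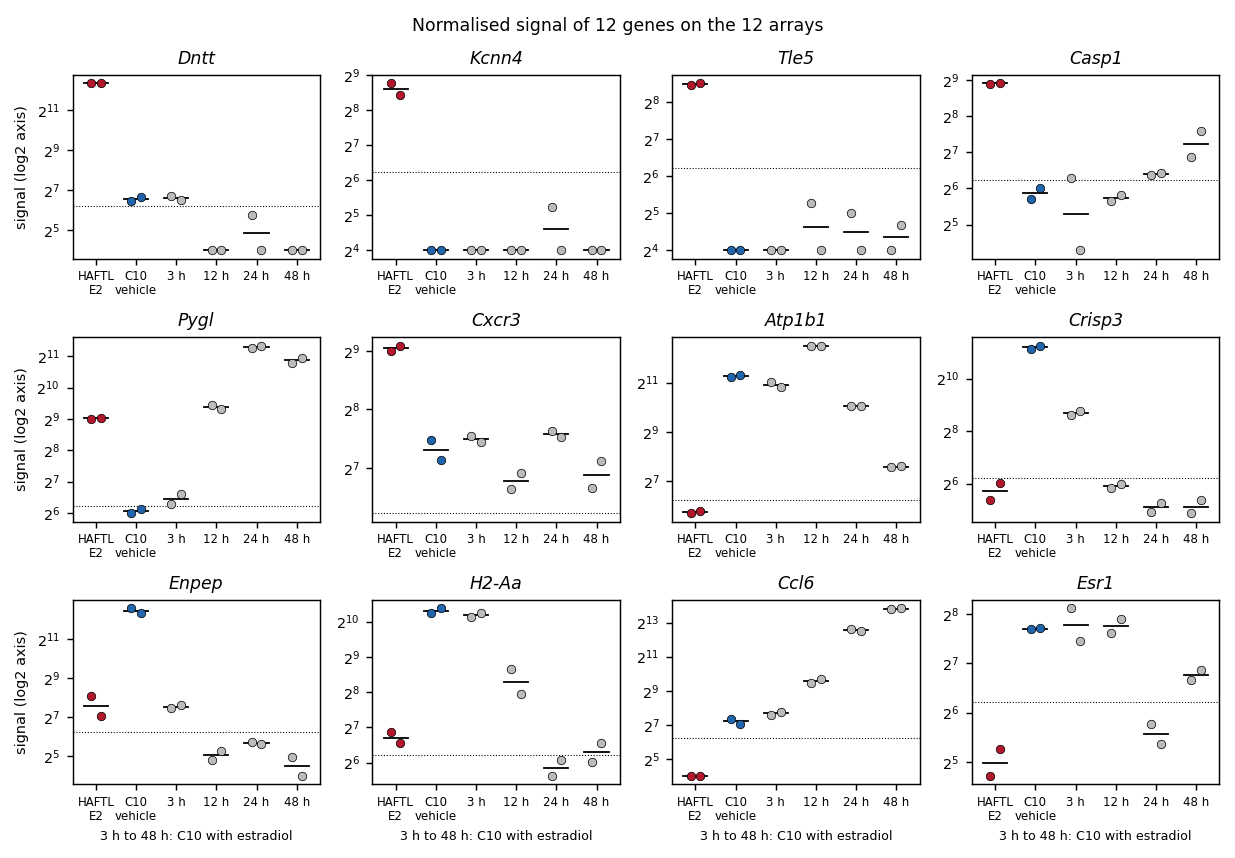
Normalised signal on a log2 axis of 12 genes on each array, in HAFTL with estradiol (red, left), vehicle C10 (blue) and C10 after 3, 12, 24 and 48 h of estradiol (grey). Bars are means of the 2 log2 values and the dotted line is the filter level of 74.6. Dntt, Kcnn4 and Tle5 are bright in both HAFTL arrays alone, and Ccl6 is at the floor in HAFTL and reaches 14368 and 14495 at 48 h.

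Some genes separated HAFTL from every C10 array by lying on opposite sides of the filter level, a pattern chosen after the values were seen. There were 42 genes above the level in both HAFTL arrays and in none of the 10 C10 arrays. Of these, 24 were called, where 15.2% of all genes were. All 42 passed the filter through the HAFTL arrays, so their difference was fixed by the choice. Outside the 20 largest rises they included Ift43, a ciliary transport gene (370 and 347 in HAFTL against 42.5 and 58.8 in vehicle C10), the platelet adhesion gene Mmrn1 (323 and 264 against 46.9 and 62.5) and the T cell adaptor Skap1 (186 and 184 against 67.9 and 63.5). In the opposite pattern, 27 genes were under the level in both HAFTL arrays and above it in all 10 C10 arrays. Their direction was fixed by the choice too, and 21 of the 27 were called. Among these were the DNA sensor Aim2 (16 and 25.2 in HAFTL against 109 and 168), the triglyceride synthesis gene Dgat2 (58.2 and 25.1 against 96.3 and 96.3), the receptor gene Lrp1 (61.7 and 73.7 against 240.0 and 235), and Ifitm6 (35.4 and 47.9 against 153 and 104).

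The genes of V(D)J recombination were higher in HAFTL where they differed, with 3 of 10 called higher and 0 lower, against 15.2% of all genes called in either direction. Their median difference was 0.24, and it was positive under each scaling. Beside Dntt, Rag2 had 2393 and 1984 in HAFTL against 1330.0 and 1252 in vehicle C10, a rise of 0.76 ± 0.18 (SE, n = 2 per group, adjusted p = 0.028 in limma). Xrcc6, which encodes the Ku70 protein of DNA end joining, rose by 0.46 ± 0.10 (adjusted p = 0.022 in limma). Rag1, with 6035 and 6004 against 4927 and 4904, was not called, and its 95% interval ran from -0.49 to 1.07. The Dntt call held, while that of Rag2 ended without any single one of the 4 arrays (adjusted p between 0.052 and 0.13) and that of Xrcc6 without the first HAFTL array or either vehicle array (0.080 to 0.11). Median centring and a floor of 1 each ended the Rag2 call.

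Several transcription factors and receptor components that define the B lineage were not called. Pax5 had 552 and 467 in HAFTL against 426 and 556 in vehicle C10, which overlap, with a difference of 0.06 and a 95% interval of -0.61 to 0.73. Ebf1 had 8470 and 7588 against 8155 and 7222, and its interval was -0.23 to 0.36. The surrogate light chain genes Igll1 (27480 and 27884 against 24530 and 25512) and Vpreb1 (23781 and 23585 against 22592 and 22897) had intervals of -0.01 to 0.30 and -0.28 to 0.40. Cd79a and Cd79b differed by 0.19 and 0.05, and Il7r, the receptor chain for interleukin-7, had 16583 and 14997 against 12927 and 11842, a difference of 0.35 ± 0.11 that missed the threshold (adjusted p = 0.067 in limma). Both lines therefore had signal for these defining markers.

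Of 20 B lineage transcription factors tested, 6 were called, against 15.2% of all genes, 2 higher and 4 lower, with a median of -0.10. Ikzf3, which encodes Aiolos, had 601 and 613 in HAFTL against 1520.2 and 1419.7 in vehicle C10 and fell by 1.28 ± 0.20 (SE, n = 2 per group, adjusted p = 0.0069 in limma). Irf8, a factor shared by B and myeloid cells, had 7452 and 6874 against 14861 and 15174 and fell by 1.07 ± 0.09 (adjusted p = 5.3e-04 in limma). Spib, an ETS factor related to PU.1, fell by 0.95 ± 0.15, to 1294 and 1193 in HAFTL against 2359 and 2458. Ikzf1, which encodes Ikaros, fell by 0.40 ± 0.07, while Tcf12, an E protein, rose by 0.44 ± 0.10 and Ets1 by 0.41 ± 0.09. The 3 larger falls held. The call of Ikzf1 ended without the first HAFTL array or either vehicle array (adjusted p = 0.060, 0.053 and 0.056), and those of Tcf12 and Ets1 without any single one of the 4 arrays (0.054 to 0.13). Averaging probe sets ended the calls of Ikzf3 and Ikzf1.

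Among 27 genes of the pre-B cell receptor and B cell signalling, 2 were higher and 5 lower (25.9% called, against 15.2% of all genes). The median was 0.03 and turned to -0.03 without quantile normalisation and to -0.16 under median centring. Beside Enpep, Prkcb, the protein kinase C isoform that links the B cell receptor to NF-kB, had 574 and 760.1 in HAFTL against 3628 and 3362 in vehicle C10 and fell by 2.40 ± 0.14 (SE, n = 2 per group, adjusted p = 8.3e-05 in limma), with all 3 probe sets called lower. Fcrla, an Fc receptor-like protein of B cells, fell by 1.75 ± 0.23, to 269.8 and 258 in HAFTL against 923 and 857. Plcg2, the phospholipase downstream of the receptor, fell by 0.52 ± 0.07, and the kinase gene Syk by 0.30 ± 0.07. Cd24a rose by 0.40 ± 0.07, with all 3 probe sets called, and Spn, which encodes CD43, by 0.40 ± 0.10. Calls held for Enpep, Prkcb, Fcrla and Plcg2, and those of Syk, Cd24a and Spn ended without any single one of the 4 arrays (adjusted p between 0.057 and 0.16).

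**Figure D3:**
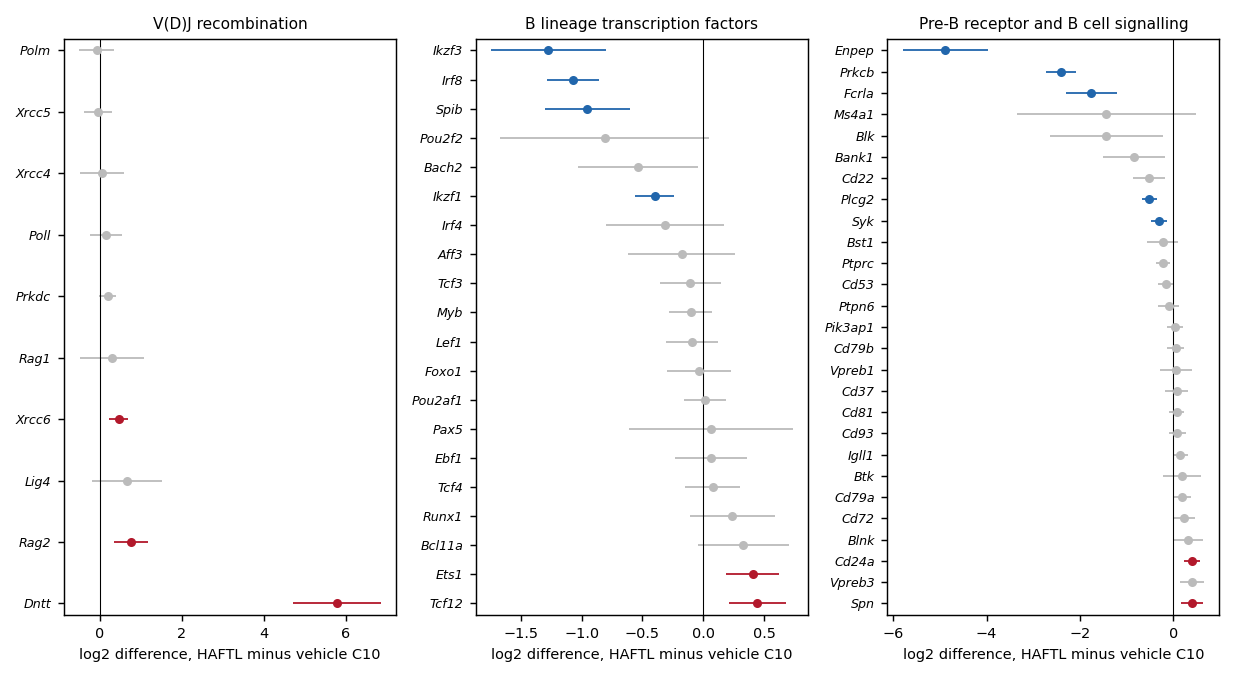
Log2 difference, HAFTL with estradiol minus vehicle C10, with its 95% interval from the limma fit, for tested genes of V(D)J recombination, B lineage transcription factors and pre-B receptor or B cell signalling. Red marks genes called higher in HAFTL, blue genes called lower and grey genes not called, and the horizontal scales differ between panels. Dntt at 5.78 and Enpep at -4.89 lie far from the rest.

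MHC class II genes were lower in HAFTL. Of 15 tested, 8 were called lower and 1 higher, against 15.2% of all genes called in either direction, and their median difference was -0.44, negative under each scaling. H2-Aa, the alpha chain of I-A, had 117 and 93.7 in HAFTL against 1215 and 1324 in vehicle C10, and fell by 3.60 ± 0.28 (SE, n = 2 per group, adjusted p = 3.3e-04 in limma), with all 3 probe sets called. H2-Eb1, the beta chain of I-E, had 281 and 263 against 1358 and 1433 and fell by 2.36 ± 0.11 (adjusted p = 2.8e-05 in limma). H2-Ab1, the beta chain of I-A, had 159.9 and 249.5 against 667 and 714 and fell by 1.79 ± 0.35 (adjusted p = 0.015 in limma). Cd74, the invariant chain that escorts class II molecules, had 4419.5 and 4802 against 11051 and 12142 and fell by 1.33 ± 0.08 (adjusted p = 7.6e-05 in limma). Both arrays of one line lay apart from both arrays of the other in each case. That was so for every called gene and for 60.3% of all genes tested.

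H2-DMb2, a chain of the peptide loading factor DM, fell by 1.23 ± 0.18, with all 3 probe sets called. Ciita had 41.3 and 49.1 in HAFTL, under the filter level, against 80.9 and 90.5 in vehicle C10, at least 1.15-fold lower (adjusted p = 0.0099 in limma). The lysosomal thiol reductase gene Ifi30 fell by 0.44 ± 0.08 and Rfxank, a subunit of the complex on class II promoters, by 0.28 ± 0.07, which turned to 0.05 with its 3 probe sets averaged. H2-Oa, a chain of DO, which restrains DM, rose by 0.73 ± 0.16 (adjusted p = 0.023 in limma), and the difference of its partner H2-Ob was 0.42 ± 0.12 without a call (adjusted p = 0.058 in limma). Calls held for H2-Aa, H2-Eb1, Cd74 and H2-DMb2. That of H2-Ab1 ended without the first HAFTL or either vehicle array (adjusted p between 0.065 and 0.081), that of Ciita without the first HAFTL or the second vehicle array (0.061 and 0.062), that of Ifi30 without the second HAFTL or either vehicle array (0.061 to 0.069), and those of Rfxank and H2-Oa without any single one of the 4 arrays (0.063 to 0.18). Under spike-in scaling 2 class II genes were still called lower, H2-Aa and H2-Eb1.

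The genes of MHC class I and the immunoproteasome, which cuts peptides for class I, fell by less. Of 17 tested, 8 were lower and 2 higher (58.8% called, against 15.2% of all genes), with a median of -0.26 that was negative under each scaling. Nlrc5, the transactivator of class I genes, had 177 and 179.8 in HAFTL against 603 and 641 in vehicle C10 and fell by 1.80 ± 0.08 (SE, n = 2 per group, adjusted p = 2.0e-05 in limma). Tap1, a subunit of the peptide transporter, had 497 and 519 against 968 and 922 and fell by 0.90 ± 0.08 (adjusted p = 6.8e-04 in limma). The immunoproteasome subunit Psmb8 fell by 0.69 ± 0.08, the class I heavy chain H2-K1 by 0.43 ± 0.07 and H2-D1 by 0.31 ± 0.06. H2 genes have near-identical copies, so their probe sets may detect several members.

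In the opposite direction, the loading chaperones Pdia3 and Calr rose by 0.62 ± 0.08 and 0.55 ± 0.09. Calls held for Nlrc5, Tap1, Psmb8, H2-K1, Pdia3 and Calr. Those of H2-D1 and of the immunoproteasome subunit Psmb9, which fell by 0.36 ± 0.08, ended without any single one of the 4 arrays (adjusted p between 0.052 and 0.12). Those of the subunit Psmb10 (0.12 to 0.15) and the proteasome activator Psme1 (0.051 and 0.052) ended without the second HAFTL array or the first vehicle array, and that of Psmb10 also without the second vehicle array. None of the 10 calls remained under spike-in scaling, and averaging probe sets ended those of Tap1, H2-D1 and Pdia3.

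Promoters of class II genes share a set of short elements, among them the Y box, which contains an inverted CCAAT sequence. The 8 letters CTGATTGG were searched on both strands in the 250 bases before each gene's start, from RefSeq on GRCm38.p6, in which 27025 genes have a promoter. They were present in 4.43% of all genes and 6.26% of 9500 genes tested, and in 4 of 11 class II genes tested (H2-Aa, H2-Eb1, H2-Eb2 and H2-Oa), of which H2-Aa and H2-Eb1 fell, H2-Oa rose and H2-Eb2 was not called. Among 14 class I and immunoproteasome genes with a promoter, 4 held them (Canx, H2-D1, Psmb9 and Tap1). It was as frequent in the cholesterol genes, which moved the other way as described further on, with 7 of 20. The motif was found in 7.57% of all genes called lower and 6.33% of those called higher, close to the share of all genes tested. Shown are the promoters of the 2 class II genes with the largest falls and of Tap1, with the motif in capitals: H2-Aa at chr17:34287824-34288073 on the minus strand, H2-Eb1 at chr17:34305617-34305866 on the plus strand and Tap1 at chr17:34187306-34187555 on the plus strand.
H2-Aa: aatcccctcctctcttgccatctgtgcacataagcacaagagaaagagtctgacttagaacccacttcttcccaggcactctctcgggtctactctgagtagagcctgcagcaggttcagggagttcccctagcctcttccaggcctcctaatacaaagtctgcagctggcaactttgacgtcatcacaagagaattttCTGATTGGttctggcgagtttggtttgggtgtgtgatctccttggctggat
H2-Eb1: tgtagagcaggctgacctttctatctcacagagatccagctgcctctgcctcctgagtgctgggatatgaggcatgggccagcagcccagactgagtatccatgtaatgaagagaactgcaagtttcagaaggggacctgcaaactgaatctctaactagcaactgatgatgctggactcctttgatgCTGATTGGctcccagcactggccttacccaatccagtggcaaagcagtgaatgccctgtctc
Tap1: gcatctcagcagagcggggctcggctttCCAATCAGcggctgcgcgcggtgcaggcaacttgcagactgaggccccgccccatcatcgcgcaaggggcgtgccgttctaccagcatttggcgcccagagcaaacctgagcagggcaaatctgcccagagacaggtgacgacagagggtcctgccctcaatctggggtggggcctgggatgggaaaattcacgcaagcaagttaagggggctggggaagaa
The motif began 51 bases before the start in H2-Aa, 62 in H2-Eb1 and, as the reverse complement CCAATCAG, 222 in Tap1. A match is a run of letters and was not tested as a binding site.

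Genes of cholesterol synthesis and uptake moved the other way. Of 25 tested, 11 were called higher in HAFTL and 0 lower (44.0% called, against 7.11% of all genes called higher), and the median difference was 0.29, positive under each scaling. Msmo1, a methylsterol oxidase, had 2507 and 2549 in HAFTL against 1362 and 1352 in vehicle C10 and rose by 0.90 ± 0.06 (SE, n = 2 per group, adjusted p = 1.3e-04 in limma), with both probe sets called. Idi1, the isomerase that forms an isoprenoid precursor, had 2464 and 2378 against 1414 and 1266 and rose by 0.86 ± 0.09 (adjusted p = 0.0011 in limma). Fdps, farnesyl diphosphate synthase, had 3476 and 3437 against 2016 and 2092 and rose by 0.75 ± 0.09 (adjusted p = 0.0021 in limma). The HAFTL values of each were above both vehicle values, as they were for every gene called higher. These rises were under 2-fold.

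The other rises were of Fdft1, squalene synthase, by 0.79 ± 0.14, Insig1, a sterol-sensing brake on the pathway, by 0.71 ± 0.07, the sterol carrier Stard4 by 0.68 ± 0.07, Hmgcs1, which makes HMG-CoA, by 0.59 ± 0.08, Srebf2, the transcription factor that drives the pathway, by 0.58 ± 0.13, Cyp51 by 0.46 ± 0.10, Ebp by 0.40 ± 0.07 and Hsd17b7 by 0.37 ± 0.07. Of the 14 not called, Sqle, Dhcr7 and Nsdhl had differences of 0.28, 0.29 and 0.24, and Abca1, a sterol exporter, of -0.41. Calls held for Msmo1, Idi1, Fdps, Insig1, Stard4 and Hmgcs1. Without one array at a time, 6 to 8 of the 11 passed: the calls of Srebf2, Cyp51 and Hsd17b7 ended without any single one of the 4 (adjusted p between 0.0502 and 0.12), that of Fdft1 without the first HAFTL or either vehicle array (0.052 to 0.059) and that of Ebp without the first HAFTL or the first vehicle array (0.052 and 0.057). Under median centring 7 were called, and under spike-in scaling 0.

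The factor encoded by Srebf2 binds sterol regulatory elements, and the letters TCACNCCA were used as their core. They were found, on either strand of the same 250 bases, in 4.20% of all 27025 genes, 4.21% of the 9500 tested and 3 of 20 cholesterol genes with a promoter, namely Hmgcs1, Msmo1 and Srebf2, all called higher. The share was 4.12% among all genes called higher and 4.65% among those called lower. These 3 promoters are shown with the motif in capitals: Hmgcs1 at chr13:119690101-119690350 on the plus strand, Msmo1 at chr8:64733579-64733828 on the minus strand and Srebf2 at chr15:82147019-82147268 on the plus strand.
Hmgcs1: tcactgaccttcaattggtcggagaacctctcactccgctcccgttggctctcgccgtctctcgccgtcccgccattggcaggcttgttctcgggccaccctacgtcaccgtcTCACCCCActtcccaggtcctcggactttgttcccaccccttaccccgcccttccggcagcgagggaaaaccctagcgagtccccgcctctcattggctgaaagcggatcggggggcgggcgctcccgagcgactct
Msmo1: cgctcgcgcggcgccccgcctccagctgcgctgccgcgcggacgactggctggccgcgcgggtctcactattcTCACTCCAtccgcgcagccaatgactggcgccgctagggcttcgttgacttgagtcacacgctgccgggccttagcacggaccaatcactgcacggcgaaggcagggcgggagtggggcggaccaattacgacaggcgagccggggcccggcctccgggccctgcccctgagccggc
Srebf2: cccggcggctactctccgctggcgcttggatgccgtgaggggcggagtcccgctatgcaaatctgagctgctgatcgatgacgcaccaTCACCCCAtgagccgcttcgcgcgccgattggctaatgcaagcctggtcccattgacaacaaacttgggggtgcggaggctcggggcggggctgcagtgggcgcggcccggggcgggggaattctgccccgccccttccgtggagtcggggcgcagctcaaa
The motif began 137 bases before the start in Hmgcs1, 177 in Msmo1 and 162 in Srebf2.

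**Figure D4:**
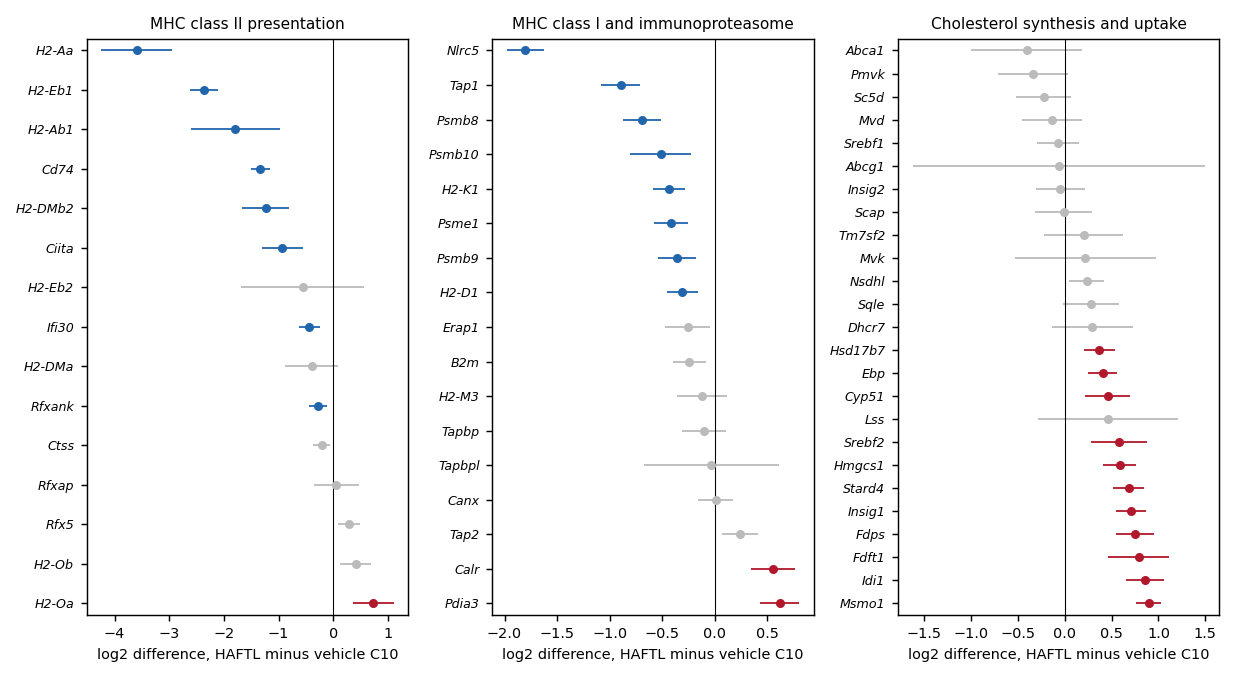
Log2 difference, HAFTL with estradiol minus vehicle C10, with its 95% interval from the limma fit, for each tested gene of MHC class II presentation (15), of MHC class I with the immunoproteasome (17) and of cholesterol synthesis and uptake (25). Red marks genes called higher in HAFTL, blue genes called lower and grey genes not called, and the horizontal scales differ between panels. Class II genes reach -3.60, class I genes -1.80 and cholesterol genes 0.90.

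Cytokine genes went both ways, with 4 of 31 tested higher in HAFTL and 6 lower (32.3% called, against 15.2% of all genes). The 6 lower included the CC chemokine genes Ccl3, Ccl6 and Ccl9 of chromosome 11. All 3 were under the filter level in both HAFTL arrays, Ccl6 at the floor itself. Ccl3 had 55.2 and 71.3 in HAFTL against 395 and 458 in vehicle C10, at least 5.70-fold lower (adjusted p = 4.6e-05 in limma), and Ccl9 had 62.4 and 48.1 against 305 and 285, at least 3.95-fold lower (adjusted p = 4.2e-05 in limma). Together with Ccl6 (16 and 16 against 161 and 134), these are attractants of monocytes and other leukocytes, and in C10 at 48 h they had 4747 and 4234 (Ccl3), 30305 and 28049 (Ccl9), and 14368 and 14495 (Ccl6). Vehicle C10 was thus between HAFTL and treated C10 for all 3. Lta, lymphotoxin alpha, had 1936 and 1771 in HAFTL against 8117 and 8714 and fell by 2.18 ± 0.22 (SE, n = 2 per group, adjusted p = 0.0011 in limma). Its chromosome 17 neighbours Ltb and Tnf fell by 1.38 ± 0.30 and 0.91 ± 0.24.

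Higher in HAFTL were the platelet chemokine Pf4 (508 and 564 against 116 and 95.5, a rise of 2.34 ± 0.36, SE, n = 2 per group, adjusted p = 0.0063 in limma), Tgfb3 (187 and 208 against 65.7 and 47.2, at least 2.64-fold), Tgfb1 (8964 and 9514 against 4856 and 5097, a rise of 0.89 ± 0.13) and Il18, a substrate of caspase-1, by 0.71 ± 0.15. Calls held for Ccl3, Ccl6, Ccl9, Lta, Pf4, Tgfb3 and Tgfb1, those of Ltb and Il18 ended without any single one of the 4 arrays (adjusted p between 0.058 and 0.11), and that of Tnf without the second HAFTL or either vehicle array (0.082 to 0.185). A floor of 1 ended the call of Tgfb3. All 10 C10 arrays had Tgfb3 under the filter level, so it passed the filter through the HAFTL arrays alone. Its call gives no separate support.

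Among 19 chemokine and chemoattractant receptors tested, 1 was higher and 4 lower (26.3% called, against 15.2% of all genes). Cxcr3, a receptor for interferon-induced chemokines, had 513 and 546 in HAFTL against 178 and 139.8 in vehicle C10 and rose by 1.75 ± 0.18 (SE, n = 2 per group, adjusted p = 0.0012 in limma). Beside Ccr7, the B cell and mucosal homing receptor Ccr6 fell by 2.25 ± 0.38, to 82.7 and 108 in HAFTL against 463 and 434, Ccr1, a receptor for Ccl3, was at least 1.80-fold lower (40.3 and 37.1 against 125 and 144), and Ccr2 fell by 0.77 ± 0.15. The call of Ccr6 ended without the first array of either line (adjusted p = 0.053 and 0.051), and that of Ccr2 without either HAFTL or the first vehicle array (0.051 to 0.073). Cxcr4, needed for retention of early B cells in marrow, had 2839.5 and 2955 against 2801 and 2136 and was not called. Of 32 cytokine and growth factor receptors, 2 were higher and 4 lower, a share of 18.8% and near the background. Lifr fell by 1.49 ± 0.24, Il6ra by 1.15 ± 0.15, Tgfbr2 by 0.82 ± 0.11 and Il6st by 0.52 ± 0.10, while Il27ra rose by 1.38 ± 0.26 and Tgfbr1 by 0.45 ± 0.10. The calls of Lifr, Il6ra and Tgfbr2 held, and that of Il27ra ended without the first HAFTL array (0.072). That of Il6st ended without either HAFTL or the first vehicle array (0.052 to 0.083), and that of Tgfbr1 without either HAFTL or the second vehicle array (0.072 to 0.10).

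Macrophage markers did not move as one: of 35 tested, 3 were higher in HAFTL and 6 lower (25.7% called, against 15.2% of all genes), and their summed signal was 15574 and 15769 in HAFTL against 13539 and 13316 in vehicle C10. Lyz2, the lysozyme gene of macrophages and granulocytes, had 831 and 948 in HAFTL against 171 and 229.9 in vehicle C10 and rose by 2.16 ± 0.14 (SE, n = 2 per group, adjusted p = 1.2e-04 in limma), though its probe set may also detect the related Lyz1. Clec7a, the beta-glucan receptor, had 2335 and 2460.3 against 838 and 961 and rose by 1.42 ± 0.09 (adjusted p = 1.4e-04 in limma), and the mannose receptor gene Mrc1 rose by 1.28 ± 0.26. Ncf1, a subunit of the phagocyte oxidase, had 121 and 143 against 598 and 593 and fell by 2.17 ± 0.09 (adjusted p = 1.8e-05 in limma). The signalling chain Fcer1g was at least 1.78-fold lower, its relative Tyrobp fell by 1.05 ± 0.13, Fcgr1 by 1.12 ± 0.13 and Clec4d by 1.24 ± 0.24.

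Defining macrophage markers differed in signal. Itgam and Lgals3 were at or near the floor in both groups and did not exceed 22.9 in any of the 4 arrays. Csf1r, the growth factor receptor of macrophages, was well above it, with 244 and 262 in HAFTL against 190.0 and 215 in vehicle C10 without a call. Adgre1 had 24.8 and 72.8 in HAFTL, under the filter level, against 88.5 and 87.7 in vehicle C10, above it, also without a call. The calls of Mrc1 ended without any single one of the 4 arrays (adjusted p between 0.060 and 0.081) and that of Clec4d without the first array of either line (0.077 and 0.078). The RNA of a whole culture was measured, so fewer cells of a type and less RNA per cell cannot be told apart. Of 12 granulocyte markers tested 1 was called (8.33%, against 15.2% of all genes). This was Anxa3, at 25.5 and 16 in HAFTL against 44.05 and 33.05 in vehicle C10, all under the filter level. Its call ended without the second HAFTL or the first vehicle array.

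Myeloid transcription factors were called in 6 of 24 cases, against 15.2% of all genes, 3 in each direction. The immediate early factor Jun had 2739 and 3636 in HAFTL against 1193 and 1256 in vehicle C10 and rose by 1.37 ± 0.17 (SE, n = 2 per group, adjusted p = 0.0027 in limma), and Id2, an inhibitor of E proteins, had 675 and 605 against 277 and 311 and rose by 1.12 ± 0.12 (adjusted p = 0.0012 in limma). Egr2, a relative of Egr3, had 98.7 and 123 against 652 and 680.5 and fell by 2.59 ± 0.12 (adjusted p = 2.4e-05 in limma), and the stress factors Atf3 and Ddit3 fell by 1.20 ± 0.17 and 0.86 ± 0.09. These 5 calls held. Fos rose by 0.39 ± 0.09 with a call that ended without either HAFTL or the first vehicle array (adjusted p between 0.089 and 0.12). Spi1, which encodes PU.1 (1371 and 1228 against 1570.3 and 1369.7), and Cebpb (1619.8 and 1651 against 1523 and 1947) were not called, with 95% intervals of -0.39 to 0.03 and -0.46 to 0.31. The probe set of Cebpa did not pass the filter and checks nothing about the construct.

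Oestrogen receptor and response genes were called in 4 of 21 cases, 1 higher and 3 lower, a share near the background of 15.2%. Esr1, the oestrogen receptor alpha gene, had 26.3 and 38.2 in HAFTL against 207 and 209.7 in vehicle C10, at least 2.79-fold lower (adjusted p = 9.9e-04 in limma), and the call held. The C10 arrays with estradiol had 277 and 176 at 3 h and 54.5 and 41.2 at 24 h. Igfbp4, an oestrogen-responsive IGF binding protein, had 3205 and 3354 against 6303 and 6279 and fell by 0.94 ± 0.08 (SE, n = 2 per group, adjusted p = 4.1e-04 in limma), with 5 of 6 probe sets called. Pgr and Tff1, textbook oestrogen-induced genes, were not called, with signals of 32.7 and 72.2 (Pgr) and 362 and 377 (Tff1) in HAFTL against 74.3 and 62.7 and 396 and 351 in vehicle C10. The palindrome of the oestrogen response element was in the 250 bases before the start of 18 of 27025 genes (0.0666%), 0 of 679 genes called higher and 0 of 753 called lower with a promoter. Such elements also lie outside this window.

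The Ras and ERK pathway, of interest since both lines carry Ha-ras, had 3 of 41 genes higher and 9 lower (29.3% called, against 15.2% of all genes), with a median of -0.15. The 9 lower became 3 with averaged probe sets and 0 under spike-in scaling, and the median became -0.06 without quantile normalisation and -0.02 under spike-in scaling. Phlda1 had 2104 and 2132 in HAFTL against 5677 and 5698 in vehicle C10 and fell by 1.43 ± 0.10 (SE, n = 2 per group, adjusted p = 2.6e-04 in limma). Dusp2, a MAP kinase phosphatase, had 6262 and 5929 against 2703 and 2462 and rose by 1.24 ± 0.21 (adjusted p = 0.0085 in limma), a call that ended without the first HAFTL or the second vehicle array (0.0501 and 0.0532). The regulators of G protein signalling Rgs1 and Rgs2 fell by 0.90 ± 0.13 and 0.38 ± 0.06, while Rasgrp2, an exchange factor, rose by 0.58 ± 0.09. Calls held for Phlda1, Rgs1, Rgs2 and Rasgrp2. Of 24 JAK-STAT and SOCS genes 4 were higher and 4 lower (33.3%). Pim2, a survival kinase, fell by 1.76 ± 0.11, to 276 and 306 in HAFTL against 1042 and 931, Socs2 rose by 0.62 ± 0.09, and these 2 calls held, while Jak3, the kinase of the common gamma chain, rose by 0.87 ± 0.17 with a call that ended without any single one of the 4 arrays (0.057 to 0.074).

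Stem and progenitor genes were called in 7 of 18 cases (38.9%, against 15.2% of all genes), 2 higher and 5 lower. Cd48, an adhesion receptor of leukocytes, had 599 and 368 in HAFTL against 1945 and 1896 in vehicle C10 and fell by 2.03 ± 0.22 (SE, n = 2 per group, adjusted p = 0.0014 in limma). Lmo2, a bridging factor of early blood cells, fell by 1.16 ± 0.07, to 1648 and 1699.5 in HAFTL against 3838 and 3632, and the ETS factor gene Fli1 fell by 0.56 ± 0.09. These 3 calls held. Erg, another ETS factor, rose by 0.76 ± 0.14, with both probe sets called, and its call ended without either HAFTL array or the second vehicle array (adjusted p = 0.053, 0.052 and 0.060).

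Markers of other cell types were called in both directions, at shares of their short lists from 0 to 28.6%, against 15.2% of all genes. Of 8 T and NK cell markers tested, Cd5 and Cd2 were lower, and of 8 dendritic cell markers Ccr7 and Zbtb32. The call of Cd2 ended without any single one of the 4 arrays (adjusted p between 0.11 and 0.195), and that of Zbtb32 without the second HAFTL or either vehicle array (0.097 to 0.17). Of 7 erythroid and megakaryocyte markers, Pf4 and Gp9 were higher, Gp9 at 106 and 43.3 in HAFTL against 16 and 16, with a call that ended without the first HAFTL or either vehicle array (adjusted p between 0.13 and 0.17). Of 14 stroma and endothelium markers, the basement membrane collagen gene Col4a1 was at least 4.16-fold lower and Cd248 fell by 2.08 ± 0.45, a call that ended without any single one of the 4 arrays (0.070 to 0.10). Neither of 2 mast cell nor of 2 hepatocyte markers was called. Summed over each list, the signal in HAFTL against vehicle C10 was 4308 and 4081 against 6727 and 7135 for T and NK cells, 2953 and 2803 against 3625 and 3525 for dendritic cells, and 350 and 329 against 565 and 361 for hepatocytes. It was 1378 and 1567 against 927 and 811 for erythroid cells and megakaryocytes, 6436 and 6198 against 5924 and 6060.3 for stroma and endothelium, and 261 and 341 against 305 and 327 for mast cells. Alb, Cd3e and Hbb-y did not pass the filter.

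None of 9 sex-linked genes was called (0 against 15.2% of all genes): the Y chromosome genes Eif2s3y (4262 and 4379 in HAFTL against 3632 and 4122 in vehicle C10), Kdm5d (1098 and 1086 against 1251 and 898) and Uty (957 and 1335 against 932 and 1022) had signal in all 4 arrays. Of 13 imprinted genes 1 was higher and 2 lower (23.1% called, against 15.2% of all genes), and Igf2, a fetal growth factor gene, had 14381 and 14446 against 14119 and 14381, with a 95% interval of -0.18 to 0.21. Housekeeping genes were called in 1 of 14 cases (7.14%), namely Hprt, which fell by 0.47 ± 0.06, while Actb, Eef1a1 and Rplp0 differed by 0.11, 0.03 and -0.04.

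Apoptosis and survival genes were called in 5 of 26 cases (19.2%, near the 15.2% of all genes), 2 higher and 3 lower. Pmaip1, which encodes the BH3-only protein Noxa, had 441 and 394 in HAFTL against 2038 and 2574 in vehicle C10 and fell by 2.46 ± 0.12 (SE, n = 2 per group, adjusted p = 4.2e-05 in limma). Cflar, an inhibitor of caspase-8, fell by 0.94 ± 0.10 and the BH3-only gene Bid by 0.59 ± 0.08. The 2 that rose were Casp1 and Casp4. Among 30 p53 targets and stress genes 3 were higher and 5 lower (26.7%), and Zmat3, a p53 target, fell by 1.39 ± 0.16 (adjusted p = 0.0021 in limma). The calls of Pmaip1, Cflar, Bid and Zmat3 held.

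Interferon response genes were called in 8 of 46 cases (17.4%, near the 15.2% of all genes), 6 higher and 2 lower. Zbp1, a sensor of Z-form nucleic acids, had 87.3 and 70.02 in HAFTL against 16 and 16 in vehicle C10, at least 1.05-fold higher (adjusted p = 5.0e-05 in limma). Trim30a had 4021 and 3684 against 2056 and 2022 and rose by 0.92 ± 0.10 (SE, n = 2 per group, adjusted p = 0.0014 in limma), Ifi27l2a rose by 0.74 ± 0.09 and Ifit2 by 0.50 ± 0.07, and these calls held. Ifi202b was lower, at the floor in HAFTL against 46.7 and 46.8 in vehicle C10, all under the filter level. Gbp3 was lower by 0.88 ± 0.15, with a call that ended without the first vehicle array.

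Proliferation and growth genes were called at rates near the background of 15.2%, though more were lower under median centring. Of 43 genes of G1/S and DNA replication 2 were higher and 5 lower (16.3% called), of 38 mitosis genes 2 and 2 (10.5%), of 17 CDK inhibitors and D-type cyclins 1 and 1 (11.8%), and of 40 genes of the Myc network and ribosome biogenesis 0 and 5 (12.5%). The medians of these lists were -0.17, -0.17, 0.12 and -0.10. Under median centring the counts were 0 higher and 10 lower for G1/S, 0 and 4 for mitosis, 0 and 3 for the inhibitors and cyclins, and 0 and 9 for the Myc network. Rb1, the retinoblastoma gene, had 2062 and 2101 in HAFTL against 3495 and 3682 in vehicle C10 and fell by 0.79 ± 0.08 (SE, n = 2 per group, adjusted p = 0.0013 in limma), the replication factor C subunit Rfc4 fell by 0.75 ± 0.09, and both calls held. Glycolysis genes were called in 3 of 20 cases (1 higher, 2 lower) and DNA methylation and Polycomb genes in 4 of 24 (2 and 2), among them Ezh2, the histone methyltransferase, which fell by 0.73 ± 0.08 with a call that held.

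Lysosome and actin genes were called higher more often than lower, but this split depended on the scaling. Of 33 lysosome genes 8 were higher and 1 lower (27.3% called, against 15.2% of all genes), which turned to 2 and 3 under median centring, and without one array at a time 1 to 5 were called higher. Atp6v0d1, a subunit of the proton pump, rose by 0.57 ± 0.07 (SE, n = 2 per group, adjusted p = 0.0029 in limma), and the protease gene Ctsc fell by 0.67 ± 0.06, with all 3 probe sets called. Both calls held. Of 49 actin cytoskeleton genes 10 were higher and 4 lower (28.6%), which turned to 4 and 4 under median centring. S100a4 had 468 and 412 in HAFTL against 84.5 and 91.4 in vehicle C10 and rose by 2.32 ± 0.18 (adjusted p = 3.5e-04 in limma), the actin monomer binder Tmsb4x rose by 0.76 ± 0.07, and the filament severing gene Gsn and the profilin Pfn2 fell by 1.25 ± 0.09 and 1.19 ± 0.16. These 4 calls held. Of 29 integrin and adhesion genes 2 were higher and 1 lower (10.3%), with Itga6 higher by 1.03 ± 0.16 and Itgb2 lower by 0.75 ± 0.08, both of which held.

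**Figure D5:**
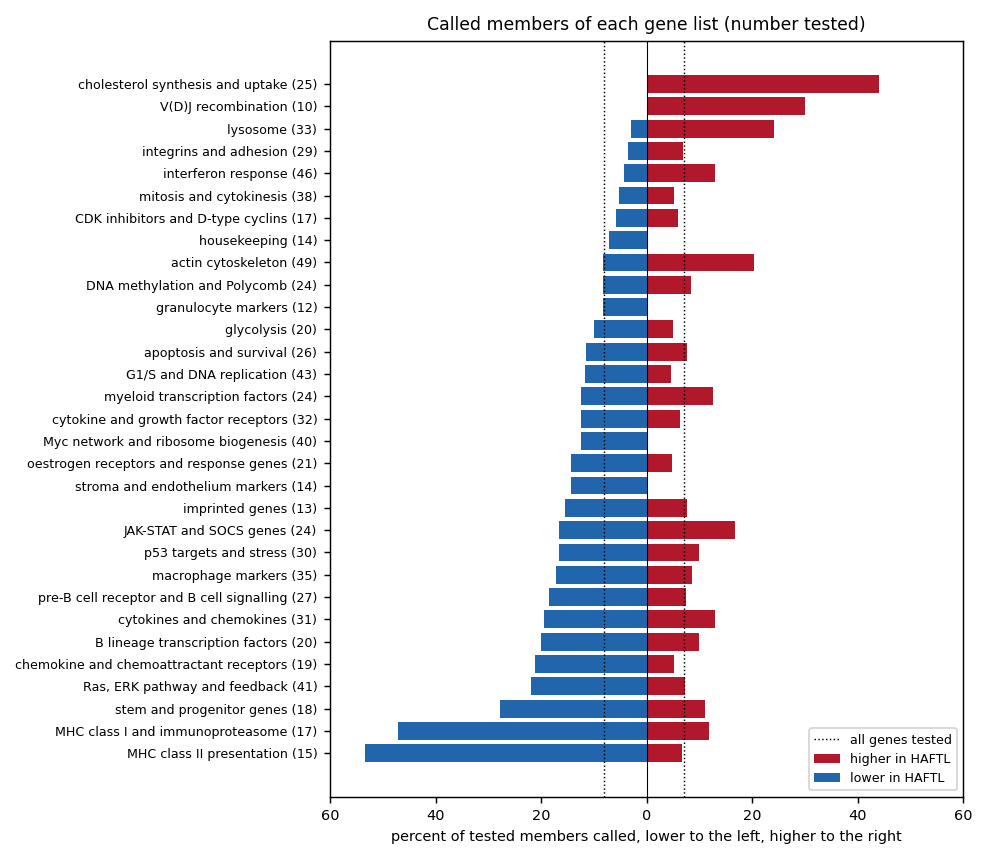
Percent of tested members of each gene list called lower (blue, left) and higher (red, right) in HAFTL with estradiol than in vehicle C10, for lists with 10 or more tested members, whose number stands in brackets. Dotted lines mark the shares among all genes tested, 8.12% lower and 7.11% higher. The MHC class II and class I lists extend farthest to the left and the cholesterol list farthest to the right.

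By chromosome, the differences were centred near 0 except on chromosome 12. Its 405 tested genes had a median difference of 0.09, with 60.99% of them above 0. The medians of chromosomes 1 to 11, 13 to 19 and X lay between -0.03 and 0.02. On chromosome 12, 40 genes were called higher and 26 lower, a share of 16.3% and near the 15.2% of all genes. In order of position, 4 equal runs of the chromosome 12 genes had medians of -0.03, 0.08, 0.22 and 0.17. Chromosome 12 kept the highest median under each scaling and without each array in turn, between -0.01 under median centring (where other chromosomes had -0.15 to -0.08) and 0.21 under spike-in scaling (0.06 to 0.12). This was chosen after the values were seen, and no test of it was run.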

How the data were processed

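Per the labels, Trizol RNA was hybridised as biotin-labelled target. What the authors deposited is a linear signal intensity for each probe set, scaled by them to equal trimmed means as the values show. The summarising method is not given in the sources used here. The log2 intensities of all probe sets were quantile normalised across 12 arrays, with a floor of 16. The 64 control probe sets were left out afterwards. Of 34945 probe sets listing a single gene, 34741 matched RefSeq genes (GRCm38.p6). Each gene was represented by its brightest probe set, and was tested where at least 2 arrays exceeded the overall median (6.22 on the log2 scale, 74.6 as signal). The fit was made in limma 3.58.1 (R 4.3.3) with a mean for each group, two-sided, leaving 6 residual degrees of freedom, to which the prior added 1.53. Where both arrays of one line lay under that level, the fold is the other line's mean against the level. The fit was also run on simulated data with independent noise. That run cannot bear on the scaling, the RNA quality or the source of the duplicates.

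Members and the 37 gene lists were chosen with earlier results of these data known. The genes named are the 20 largest rises and 20 largest falls with non-overlapping arrays, and list members. No batch is given in the labels. Same-numbered arrays did not deviate together (r between -0.034 and 0.042 over 15 pairs of groups), so the main fit has no block. Alternatives varied the scaling, floor, filter, probe sets, samples and fit.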

Additional observations from a re-analysis of the deposited data

How the results depend on the processing

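Against 832 genes higher and 950 lower in HAFTL with estradiol than in vehicle C10, median centring gave 406 higher, poly-A spike-in scaling 69 higher and 61 lower, a fit of only the 4 arrays compared 135 higher and 182 lower, and a minimum difference of 1 on the log2 scale 162 higher and 238 lower. The mean of the probe sets gave 609 lower. Leaving out 1 array at a time gave 326 to 391 higher and 442 to 537 lower. The fit with the replicate number as a block gave 753 higher and 853 lower, and since the numbers do not pair the arrays this is a value and not a weaker effect. The other settings stayed within 1.5 times of both counts. Of 223 called genes that the lists and the largest differences hold, 184 were still called under median centring, 148 with averaged probe sets, 82 in the fit of 4 arrays, 59 under spike-in scaling and 208 with the block. The fit of 4 arrays called 4 class II genes lower (8 in the main fit) and 2 class I genes lower (8). It called 3 cholesterol genes higher (11 in the main fit), 0 lysosome genes (8) and 1 actin gene (10).

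Some log2 differences, HAFTL minus vehicle C10, changed sign. With averaged probe sets they were -1.01 for Mycn, 0.20 for Pfkp, -0.075 for Rac2, 0.047 for Rfxank, -0.52 for Runx1, 0.10 for Slc16a1 and 0.18 for Ube3a. Mmp8 was at 2.24 with a floor of 1. Without 1 array at a time, Itga5 lay between -0.94 and 0.68. The cause was not tested. Signals near the floor give only bounds, and 629 genes tested were under the filter level in all 4 arrays. Of these 629, 32 were called.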
